A study of Mus musculus with 8 samples.

Results

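Retinoid metabolism and receptors were followed as 9 genes: the retinol dehydrogenases Rdh5 and Rdh10, the retinaldehyde dehydrogenase Aldh1a1, the binding proteins Crabp1 and Crabp2, and the receptors Rarb, Rxra, Rxrb and Rxrg. Every probe set annotated to 1 of these symbols alone was taken, which gave 12 of the 45101 probe sets on the array, for 9 of the 18194 genes that have such a probe set. The genes were chosen with their levels on these arrays already known. Their values are therefore a description, with no p. Neural stem cells (NSCs) grown as secondary neurospheres, floating clusters from striatal cells of mouse brain, were cultured with rcCHIL3 for 3 days, with MHM + GF for 3 days, with rcCHIL3 for 7 days or with MHM + GF for 7 days, and each of the 4 groups had 2 arrays. The rcCHIL3 medium is MHM, a serum-free hormone mix, collected from HEK293T cells, a human kidney line, transfected with Chil3, which encodes a secreted chitinase-like protein also called ECF-L. MHM + GF is the same hormone mix, unconditioned, with the growth factors EGF and FGF-2. The recipe given for MHM names no retinoid. The paper labels rcCHIL3 and rcCHIL3 + GF apart in its neurosphere assays, and labels these arrays rcCHIL3. It reports that rcCHIL3 medium formed neurospheres without growth factors. No source states outright whether any were added for these arrays. The paper used embryonic or adult striatum and lists embryos and adults of different strains, but not which served here. No array has medium of HEK293T cells without Chil3, so CHIL3, conditioning and growth factors cannot be told apart.

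Cells make retinoic acid from retinol in consecutive oxidations. Retinol dehydrogenases give retinaldehyde, and retinaldehyde dehydrogenases turn it into retinoic acid, which the CRABP proteins carry. Retinoic acid binds the nuclear receptors RAR, which act on DNA in pairs with RXR and raise transcription of target genes. In the nervous system retinoic acid is known for patterning the hindbrain and spinal cord and for promoting the differentiation of neural progenitor cells.

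Promoter sequences of the members are shown because these genes include a classical target of the retinoic acid receptors. RefSeq promoters of build GRCm38.p6, 250 bases before to 50 bases after a start site, were found for 7 of the 9 genes, with 11 promoters in all. The letters searched on both strands were those of a receptor half-site (the spelling AGGTCA, the spelling AGTTCA, the spelling GGGTCA or the spelling GGTTCA), of a DR5, a pair of half-sites in the same orientation 5 bases apart, which RAR and RXR pairs are known to bind, and of a GC box (GGGCGG), which Sp1 is known to bind. A half-site was in 5 of the 11 promoters and in 43.7% of 32851 mouse promoters. A GC box was in 5 of the 11 and in 35.7% of all. A DR5 holds its own half-sites, and stood only in the Rarb promoter among the 11, against 0.0974% of all promoters. The 250 bases before the start are printed for Rarb, with the DR5 in capitals, and for Rdh5, the gene whose signal differed most, with its GC box in capitals.
Rarb, chr14:16575477-16575726, minus strand: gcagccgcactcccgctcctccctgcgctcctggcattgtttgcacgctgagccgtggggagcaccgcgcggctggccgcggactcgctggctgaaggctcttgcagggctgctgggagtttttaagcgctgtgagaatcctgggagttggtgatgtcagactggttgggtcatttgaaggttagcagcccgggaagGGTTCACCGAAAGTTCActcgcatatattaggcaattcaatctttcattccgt
Rdh5, chr10:128919298-128919547, minus strand: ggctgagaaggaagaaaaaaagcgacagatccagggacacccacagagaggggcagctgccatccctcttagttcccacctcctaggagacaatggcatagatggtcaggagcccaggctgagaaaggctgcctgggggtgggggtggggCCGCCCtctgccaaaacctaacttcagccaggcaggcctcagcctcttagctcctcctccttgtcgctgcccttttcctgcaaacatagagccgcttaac
The DR5 of Rarb begins 53 bases before the start site, and the GC box of Rdh5 begins 100 bases before it. No half-site of these spellings stood in the Rdh5 window.

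Signals were deposited on a linear scale, each array was brought to an average of 100, and all levels are on that scale. A change is a difference of group means of log2(signal + 20), which understates changes of dim probe sets. It was fitted with limma for the 15679 probe sets that reached 50 on at least 2 of the 8 arrays (the filter), and is called where p, adjusted by the Benjamini-Hochberg method over those probe sets, was under 0.05. For the members, chosen on these arrays, a call only marks a value past this threshold and is no test of them. Of the 12 probe sets 5 passed the filter, 1 for Rdh5, 2 for Rdh10, 1 for Rxra and 1 for Rxrb. The other 7, which hold every probe set of Aldh1a1, Crabp1, Crabp2, Rarb and Rxrg and the remaining 2 of Rxra, stayed under it, and their signals are given, with a fit without the filter for Crabp2 and Rarb alone. A lower signal in a culture may come from fewer cells of a type or from less RNA per cell, which cannot be told apart. The 8 arrays were alike in quality measures: between 30.1% and 31.5% of probe sets reached 50, and arrays of a group correlated at 0.9917 to 0.9943 (log2 values). As for the labelled cell type, the stem cell factor Sox2 had signals of 1685 to 2096 on all 8 arrays, while the intermediate filament gene Nes had 187 and 186 with MHM + GF at 3 days and 8.68 to 32.2 on the other 6 arrays. All 7 neural stem and progenitor markers measured passed the filter. Their summed signals were 6542 to 6837 with rcCHIL3, against 8221 to 8468 with MHM + GF at 3 days. At 7 days the sums were 7113 to 7164, against 7767 to 7794. With rcCHIL3, 5 had a lower mean and 2, Msi1 and Pax6, a higher one at 3 days. At 7 days all 7 were lower.

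**Figure D1:**
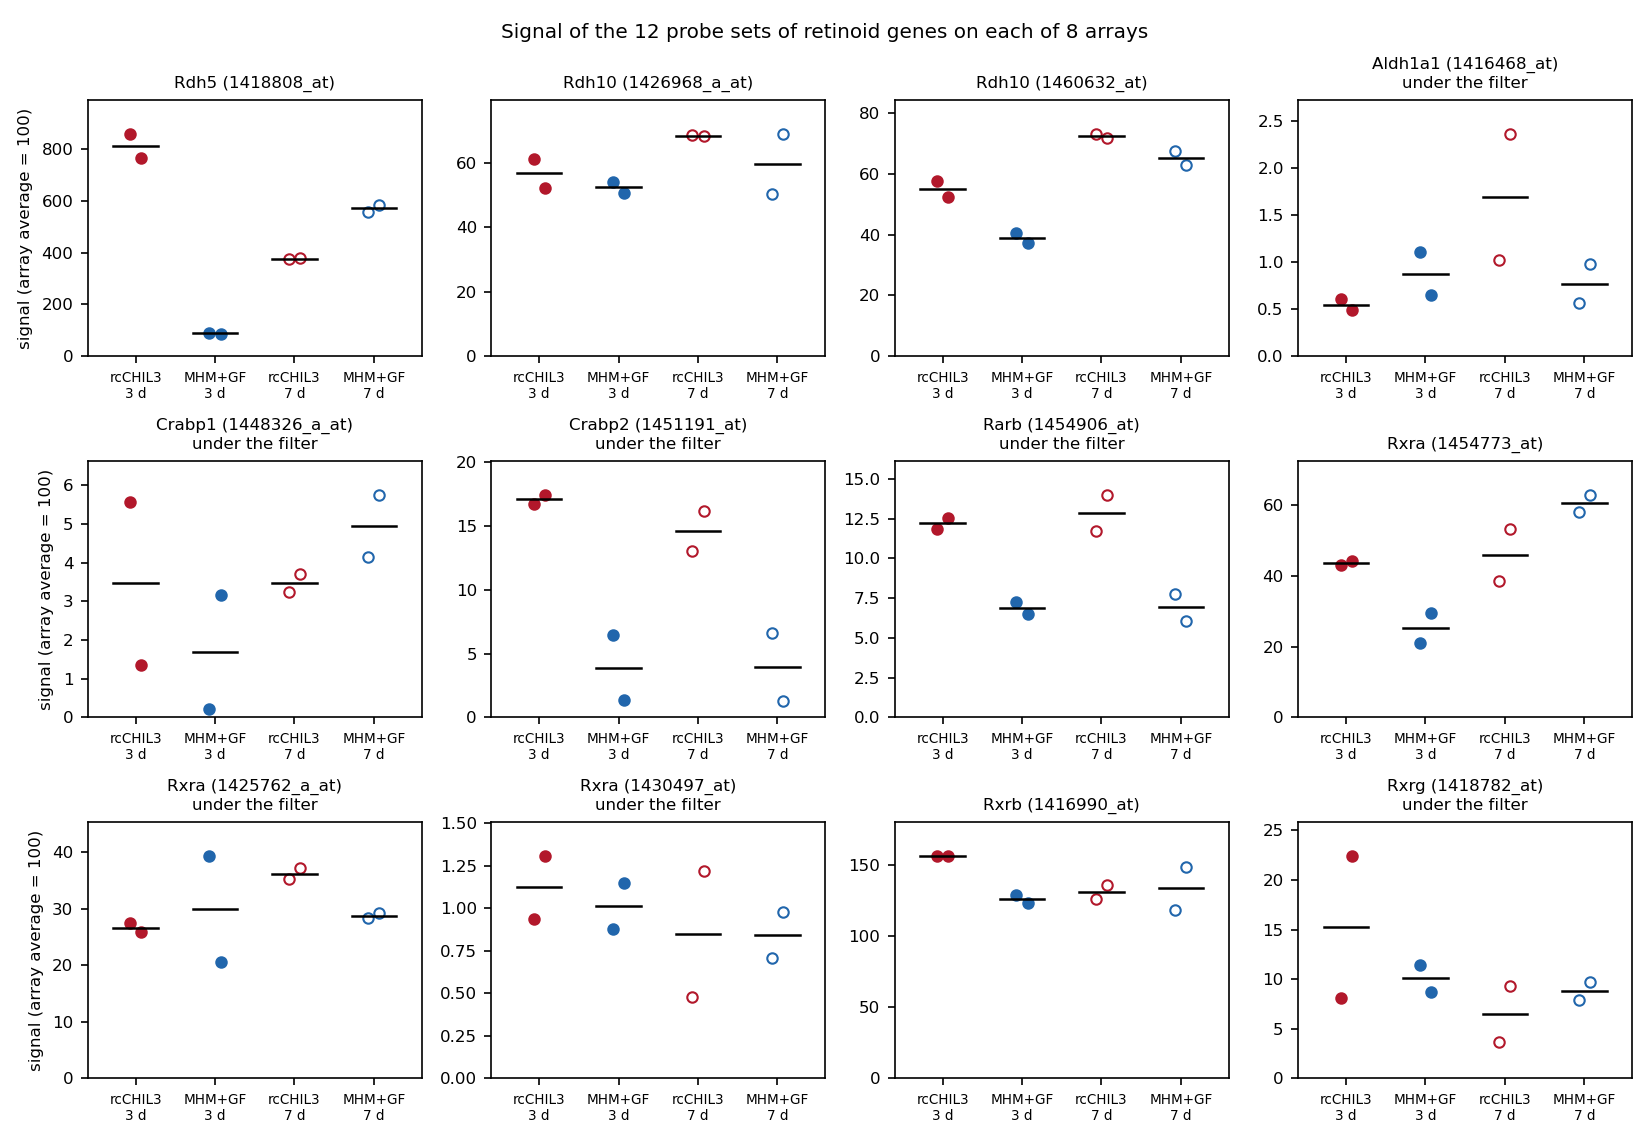
Signal of each of the 12 probe sets (y axis, linear, array average 100, each panel with its own range) on each array (points) in the 4 groups, with bars for the group means (n = 2 arrays each). Rdh5 had signals of 763 and 858 with rcCHIL3 at 3 days and of 86.7 and 91.4 with MHM + GF at 3 days, and no other panel passed 157.

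Rdh5 differed between the media in opposite directions on the 2 days, and its group means spanned 2.93 on the log2 scale, beside 0.84 for Rxra, 0.29 for Rdh10 and 0.27 for Rxrb (brightest probe sets). Rdh5, probe set 1418808_at, encodes a dehydrogenase that oxidises cis isomers of retinol and is best known from the visual cycle of the retinal pigment epithelium. At 3 days its signals were 858 and 763 with rcCHIL3, against 91.4 and 86.7 with MHM + GF. At 7 days they were 373 and 379.7 with rcCHIL3, against 555 and 585 with MHM + GF. The groups did not overlap in any comparison, and their order from highest to lowest was rcCHIL3 at 3 days, MHM + GF at 7 days, rcCHIL3 at 7 days and MHM + GF at 3 days, with every step wider than the spread between arrays.

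Mean signals of Rdh5 at 3 days were 811 ± 67.5 with rcCHIL3, against 89.1 ± 3.3 with MHM + GF (SD, n = 2 arrays each), a 9.1-fold difference and a log2 change of 2.93 (SE 0.07). At 7 days the means were 376 ± 4.5 with rcCHIL3, against 570.0 ± 20.5 with MHM + GF (SD, n = 2 arrays each), a log2 change of -0.57 (SE 0.07). Rdh5 was thus higher with rcCHIL3 at the early time and lower at the late one. Between the days the media also ran in opposite directions. With rcCHIL3 the log2 change of 7 over 3 days was -1.06 (SE 0.07), and with MHM + GF it was 2.44 (SE 0.07), a 6.4-fold higher mean at 7 days. All 4 changes were called, as was the contrast of the rcCHIL3 effects at 7 and 3 days, -3.50 (SE 0.10).

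The size of the Rdh5 difference at 3 days stayed between 2.63 and 3.18 under 21 alternative settings, and that at 7 days between -0.61 and -0.49. Of 102 values under alternatives, 100 kept the call and the direction, and the 2 calls lost, at 7 days and between the days in rcCHIL3, were both under the test given in the methods with Benjamini-Hochberg adjustment. Of all 15679 kept probe sets, that adjusted test called 37 at 7 days and 0 between the days in rcCHIL3. A further probe set, 1422614_s_at, is annotated to both Rdh5 and Bloc1s1, a gene of lysosome-related organelle biogenesis, and is no member. It had 421 and 432 with rcCHIL3, against 272 and 295 with MHM + GF at 3 days. The 7-day arrays had 359 and 426 with rcCHIL3, against 448.5 and 501 with MHM + GF. The order of its groups was higher with rcCHIL3 at 3 days and lower at 7 days, as for Rdh5 itself, but its target cannot be assigned to 1 of the 2 genes.

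Summed signals of the glial marker lists were also lowest with MHM + GF at 3 days, although single markers went both ways. The astrocyte list, with 5 of 6 markers over the filter (Gjb6 at 4 to 49.6), summed to 4617 to 4804 with rcCHIL3, against 3202 to 3326 with MHM + GF at 3 days. At 7 days it summed to 5549 to 5656 with rcCHIL3, against 5520 to 5537 with MHM + GF. Gfap, the astrocyte filament gene, had 842 and 978 with rcCHIL3, against 57.6 and 46.3 with MHM + GF at 3 days. At 7 days Gfap had 1538 and 1555 with rcCHIL3, against 1101 and 1189 with MHM + GF. Of the 5 astrocyte markers over the filter, 3 had a higher mean with rcCHIL3 and 2 a lower one on each day. Aldh1l1, a folate enzyme of astrocytes, was among the 2, with 432 and 387 with rcCHIL3, against 934 and 1062 with MHM + GF at 3 days. Slc1a3, the glutamate transporter that neural stem cells also express, was the other, with 989 and 1068 with rcCHIL3, against 1463 and 1240 with MHM + GF at 3 days.

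The oligodendrocyte list, with 7 of 8 measured markers over the filter (Mog at 0.25 to 11.3), summed to 6342 to 6456 with rcCHIL3, against 4344 to 4355 with MHM + GF at 3 days. At 7 days it summed to 5644 to 5855 with rcCHIL3, against 5438 to 5547 with MHM + GF. Of the 7 markers, 4 had a higher mean with rcCHIL3 at 3 days and 3 a lower one, among them the progenitor markers Pdgfra (219, against 269 with MHM + GF) and Cspg4 (74.4, against 148 with MHM + GF). Both glial sums were lower with MHM + GF than with rcCHIL3 at each day, whereas Rdh5 was higher with MHM + GF at 7 days. The neuroblast and neuron list, with 4 of 5 over the filter (Rbfox3 at 14.3 to 45.3), summed to 957 to 958 with rcCHIL3, against 689 to 722 with MHM + GF at 3 days. On day 7 it summed to 505 to 542 with rcCHIL3, against 1201 to 1277 with MHM + GF, the same order of the media as for Rdh5 on each day. Of its 4 markers, 3 had a higher mean with rcCHIL3 at 3 days, and Sox11 a lower one (537, against 581). At 7 days all 4 were lower. The meningeal, mural and fibroblast list, with only Pdgfrb and Rgs5, 2 of 7, over the filter, had that order too. It summed to 73.0 to 88.9 with rcCHIL3, against 45.8 to 62.9 with MHM + GF at 3 days. At 7 days it summed to 96.75 to 106, against 444 to 487. The ependymal and choroid plexus list, with 4 of 6 over the filter, did not have that order. It summed to 378 to 387 with rcCHIL3, against 380 to 427 with MHM + GF at 3 days. At 7 days it summed to 669 to 686 with rcCHIL3, against 517 to 533 with MHM + GF. Of its 4 markers, 2 had a higher mean with rcCHIL3 and 2 a lower one at 3 days, and 3 a higher and 1 a lower one at 7 days. The part of these cell types in the Rdh5 signal was not tested. Of the 5 photoreceptor and pigment epithelium markers measured, only Ttr, which the choroid plexus also makes, passed the filter. The list summed to 172 to 507 with rcCHIL3, against 40.4 to 181 with MHM + GF at 3 days, and to 395 to 594 with rcCHIL3, against 308 to 583 with MHM + GF at 7 days, most of it Ttr, which varied widely between arrays of a group. Tyrp1 reached at most 30.2. Crx lay at 1.37 to 7.27, Rcvrn at 0.28 to 0.98 and Best1 at 0.71 to 1.61 on all 8 arrays.

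Genes whose 4 group means lay closest to those of Rdh5, as the root mean square difference of centred log2 means over the 4 groups, were Meg3 (0.27), Padi2 (0.30) and Spag1 (0.37). Meg3 is a long noncoding RNA, Padi2 encodes an enzyme that converts arginine to citrulline in proteins, and Spag1 is needed for the assembly of dynein arms. At 3 days the mean signal of Meg3 was 403 with rcCHIL3, against 71.6 with MHM + GF, and at 7 days it was 210.1 with rcCHIL3, against 364 with MHM + GF. Padi2 shared the low level with MHM + GF at 3 days (81.2, against 712 with rcCHIL3), but at 7 days its mean was 502 with rcCHIL3, against 420.0 with MHM + GF, the other way round from Rdh5. The likeness was picked from 8975 genes and carries no test.

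**Figure D2:**
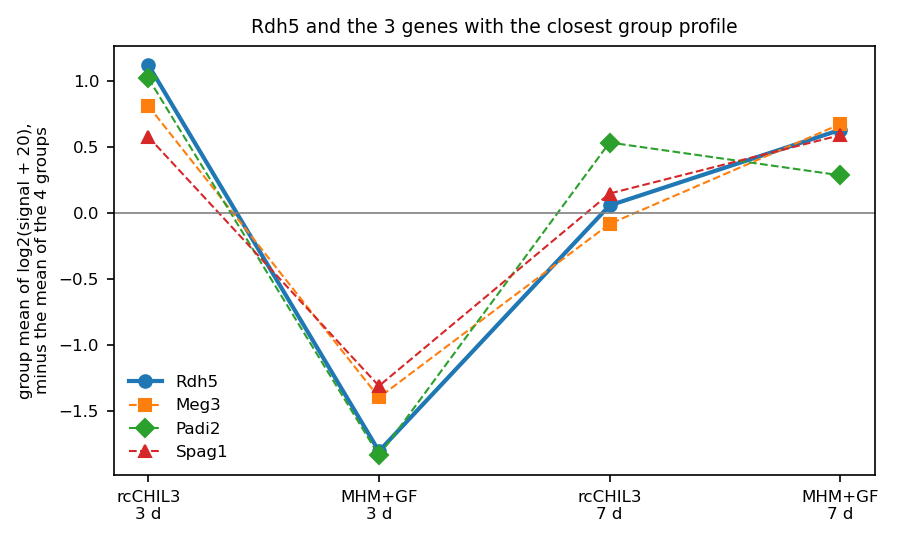
Group means of log2(signal + 20), minus the mean of the 4 groups (y axis), for Rdh5 and its 3 closest genes (lines join the 4 groups only to guide the eye, n = 2 arrays each). All 4 genes are lowest with MHM + GF at 3 days, where Rdh5 lies at -1.81, and Padi2 alone is higher with rcCHIL3 than with MHM + GF at 7 days.

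Rdh10 encodes the main dehydrogenase that makes retinaldehyde in the mouse embryo, and differed far less. Its probe set 1426968_a_at had 61.2 and 52.3 with rcCHIL3, against 54.2 and 50.65 with MHM + GF at 3 days. After 7 days the values were 68.5 and 68.3 with rcCHIL3, against 50.2 and 69.1 with MHM + GF. The groups overlapped at each day, and the log2 changes, between 0.08 and 0.21 (SE 0.12) over the 4 comparisons, were not called. Probe set 1460632_at of the same gene had 57.7 and 52.3 with rcCHIL3, against 40.4 and 37.3 with MHM + GF at 3 days. Its signals at 7 days were 73.1 and 71.75 with rcCHIL3, against 67.3 and 62.9 with MHM + GF. Here the rcCHIL3 arrays lay above the MHM + GF arrays on both days, with a called log2 change of 0.35 (SE 0.09) at 3 days and an uncalled one of 0.12 (SE 0.09) at 7 days.

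Between the days, 1460632_at was higher at 7 than at 3 days by 0.30 (SE 0.09) with rcCHIL3 and by 0.53 (SE 0.09) with MHM + GF, both called. The call at 3 days was lost with the values as deposited, without rcCHIL3 replicate 1 or MHM + GF replicate 2 of that day, and under the test given in the methods with Benjamini-Hochberg adjustment, though not without that adjustment. The call in rcCHIL3 was lost without any 1 of the 4 rcCHIL3 arrays, with no filter and under that adjusted test, which also lost the call in MHM + GF. The probe sets of Rdh10 thus disagree in what was called, and which of them follows the transcript better is not known from these files.

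Aldh1a1, which turns retinaldehyde into retinoic acid, lay between 0.49 and 2.37 on all 8 arrays, below the filter of 50. The cellular retinoic acid binding protein gene Crabp1 lay between 0.22 and 5.76. Neither showed a level that stood apart in 1 group. Crabp2, whose protein delivers retinoic acid to RAR in the nucleus, was also dim but ordered by medium. It had 16.7 and 17.5 with rcCHIL3, against 6.44 and 1.36 with MHM + GF at 3 days. The 7-day arrays had 13.1 and 16.2 with rcCHIL3, against 6.58 and 1.26 with MHM + GF. Every rcCHIL3 array was thus above every MHM + GF array, but how many of all probe sets are so ordered was not counted. Fitted with no filter, its log2 changes were 0.64 (SE 0.14) at 3 days and 0.54 (SE 0.14) at 7 days, both called. That fit called 8687 of 45037 probe sets at 3 days and 6849 at 7 days. For signals this low the offset sets much of the size of a change, and they cannot be told from background here.

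Rarb, the receptor whose promoter holds the DR5 printed above and which retinoic acid itself induces in many cells, followed the same order at a low level. Rarb had 11.8 and 12.6 with rcCHIL3, against 7.27 and 6.49 with MHM + GF at 3 days. After 7 days the values were 11.7 and 14.0 with rcCHIL3, against 7.75 and 6.07 with MHM + GF. The 4 rcCHIL3 arrays were above the 4 MHM + GF arrays, again an order not counted over all probe sets. Within each medium the arrays of the days overlapped. Fitted with no filter, its changes of 0.26 at 3 days and 0.29 at 7 days (SE 0.09) were not called. Detection calls were not used here, and signals this far under the filter cannot be told from background here.

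The RXR genes encode the partners of RAR and of several other nuclear receptors. Among them, the brightest probe set of Rxra alone rose with MHM + GF between the days. Rxra, probe set 1454773_at, had 43.1 and 44.3 with rcCHIL3, against 21.0 and 29.5 with MHM + GF at 3 days. Its signals at 7 days were 38.65 and 53.4 with rcCHIL3, against 58.1 and 63.0 with MHM + GF. The MHM + GF arrays were thus the lowest at 3 days and the highest at 7 days, and those of rcCHIL3 lay between and overlapped across the days. Only 3 arrays reached 50, both of MHM + GF at 7 days and 1 of rcCHIL3 at 7 days, so the probe set passed the filter through the 7-day cultures.

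The log2 change of Rxra with rcCHIL3 was 0.50 (SE 0.13) at 3 days, called, and -0.30 (SE 0.13) at 7 days, not called. The change of 7 over 3 days was 0.04 (SE 0.13) with rcCHIL3, not called, and 0.84 (SE 0.13) with MHM + GF, called. The rcCHIL3 effect differed between the days by -0.80 (SE 0.18), called. The change in MHM + GF and this contrast both use the MHM + GF arrays at 7 days. Without those arrays the probe set would not have passed the filter, so both values are a description. At 3 days the call was lost without MHM + GF replicate 1 of that day (0.36) and under the test given in the methods with or without adjustment. At 7 days a call was gained without rcCHIL3 replicate 2 of that day (-0.46) and with the replicate number as a block (-0.30). The call in MHM + GF between the days was lost under the adjusted test of the methods. With no offset and a floor of 10 the changes were larger, 0.81 at 3 days and 1.28 in MHM + GF between the days, and with an offset of 50 they were 0.32 and 0.56. Another Rxra probe set, 1425762_a_at, lay between 20.6 and 39.4 and the last, 1430497_at, between 0.48 and 1.31, both under the filter. For 1425762_a_at the 3-day arrays of MHM + GF, 39.4 and 20.6, enclosed those of rcCHIL3, 27.4 and 25.8, unlike 1454773_at. They also enclosed the 7-day arrays of MHM + GF, 28.3 and 29.2, so this probe set showed no rise between the days. With rcCHIL3 at 7 days it had 35.25 and 37.2, above MHM + GF, the other way round from 1454773_at.

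Rxrb, probe set 1416990_at, had 156 and 157 with rcCHIL3, against 129 and 124 with MHM + GF at 3 days. The 7-day arrays had 126 and 136 with rcCHIL3, against 118 and 149 with MHM + GF, and the groups overlapped. Its log2 change was 0.27 (SE 0.10) at 3 days, called, and -0.02 (SE 0.10) at 7 days, not called, a sign that turned with the values as deposited (0.07). The 3-day call was lost without any 1 of the 4 arrays of that day, with no filter, as deposited, with quantile normalization or median centring and under the adjusted test of the methods. Rxrg lay between 3.66 and 22.5 with both extremes in rcCHIL3, and its groups overlapped at each day.

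**Figure D3:**
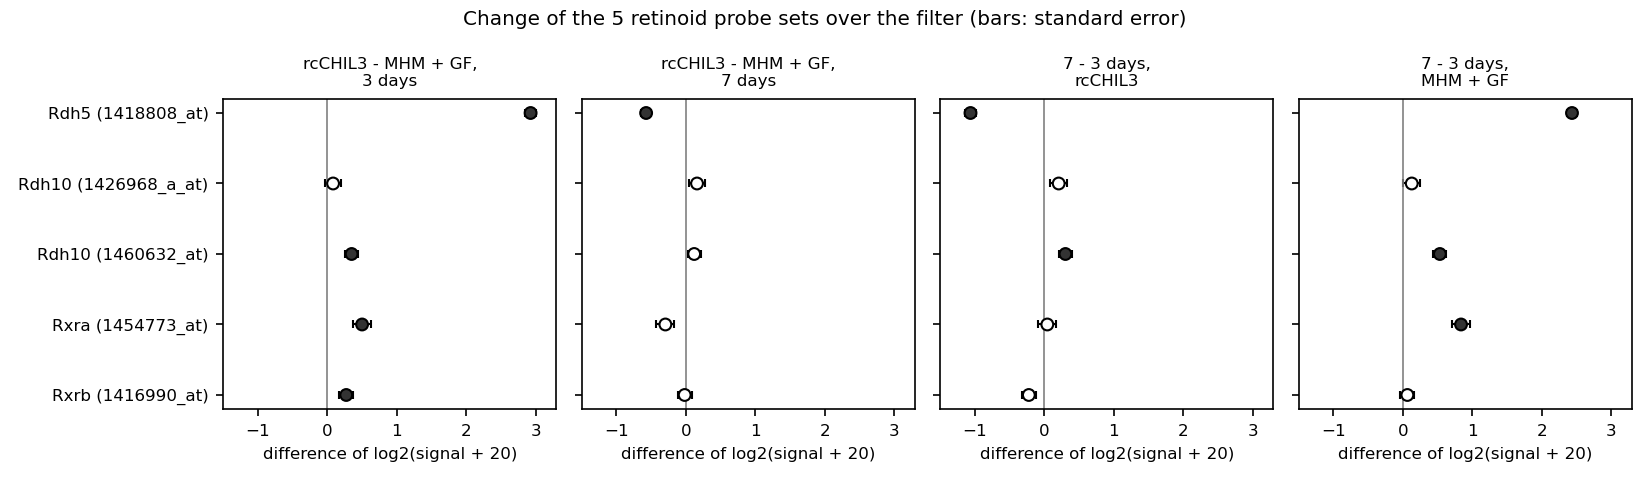
Log2 change (x axis, difference of mean log2(signal + 20)) of the 5 probe sets over the filter in 4 comparisons, with bars for the standard error and filled points for calls. Rdh5 stands at 2.93 and -0.57 for rcCHIL3 over MHM + GF at 3 and 7 days, while the other 4 probe sets lie between -0.30 and 0.84 in all 4 panels.

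Counted over the 5 probe sets that passed the filter, 4 were called at 3 days, all higher with rcCHIL3, where 50.2% of all kept probe sets were called and 27.7% were called higher. The count was 2 without rcCHIL3 replicate 1 or without either MHM + GF array of that day. At 7 days 1 was called, lower with rcCHIL3, where 44% of all were called and 22.7% lower. Between the days, 2 were called in rcCHIL3, 1 in each direction (35.8% of all, 18% higher and 17.9% lower), and 3 in MHM + GF, all higher at 7 days (57.1% of all, 31.1% higher). The rcCHIL3 count was 1 without any 1 of the 4 rcCHIL3 arrays. For the contrast of the rcCHIL3 effects at 7 and 3 days 2 were called, both lower at 7 days (41.4% of all, 18.7% higher and 22.7% lower). The median change of the 5 was 0.35 at 3 days and -0.02 at 7 days, beside 0.03 and -0.01 over all kept probe sets. In MHM + GF between the days it was 0.53, beside 0.04 over all. Groups did not overlap for 4 of the 5 at 3 days and for 3 at 7 days, where 75.7% and 72.1% of all kept probe sets did not overlap. Between the days they did not overlap for 4 in rcCHIL3 (69.8% of all) and for 3 in MHM + GF (77.6% of all). Since the genes were chosen on these arrays, these counts describe them only. The counts of MHM + GF between the days and of the contrast include Rxra, which passed the filter through its 7-day cultures.

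The wider retinoid pathway was followed with 72 further genes of 9 lists, of which 64 had a probe set of their own and 26 passed the filter, each gene represented by its brightest probe set. These lists too were drawn up with earlier results of these arrays known, so their calls and adjusted p are descriptive. At 3 days 8 of the 26 were higher and 7 lower with rcCHIL3, where 52.4% of 8975 genes were called, 30.3% higher and 22.1% lower. The count of 15 was 8 without rcCHIL3 replicate 1, rcCHIL3 replicate 2 or MHM + GF replicate 2 of that day, and 9 without MHM + GF replicate 1. At 7 days 5 were higher and 7 lower with rcCHIL3 (44.5% of all genes, 21.8% higher and 22.6% lower), a count of 12 that was 8 without rcCHIL3 replicate 2 of that day. Between the days, 4 were higher and 5 lower at 7 days in rcCHIL3 (38.4% of all genes, 20.4% higher and 18.1% lower), and 9 were higher and 5 lower in MHM + GF (58.3% of all genes, 34% higher and 24.2% lower). For the contrast of the rcCHIL3 effects 5 were higher and 3 lower at 7 days (43.3% of all genes, 19.2% higher and 24.1% lower). Nr4a2 and Rarres2 passed the filter only through the arrays of 1 group, in which they were high. Without these 2, 7 of 24 were higher and 6 lower at 3 days, 4 higher and 7 lower at 7 days, and 3 higher and 3 lower for the contrast of the effects. The median change of the 26 was -0.02 at 3 days and -0.13 at 7 days, beside 0.04 and -0.01 over all genes.

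No gene of the synthesis and breakdown lists passed the filter. Aldh1a2, the main retinaldehyde dehydrogenase of the embryo, reached at most 0.76 and Aldh1a3 at most 5.15 on any array. The retinoic acid hydroxylases Cyp26a1 and Cyp26b1 reached 2.59 and 9.16. The other receptors Rara and Rarg also stayed under the filter, with highest signals of 17.1 and 47.8. The probe sets of the retinaldehyde dehydrogenases and retinoic acid hydroxylases on the array were thus under the filter in both media.

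Of the 10 uptake, transport and storage genes on the array 3 passed the filter, and 1 of them rose and 2 fell with rcCHIL3 at 3 days. Rlbp1 encodes a binding protein of cis-retinoids in the retinal pigment epithelium and Müller glia. It had 102 and 92.8 with rcCHIL3, against 128 and 154 with MHM + GF at 3 days. After 7 days the values were 56.9 and 52.5 with rcCHIL3, against 143 and 133 with MHM + GF. It was lower with rcCHIL3 on both days, with changes of -0.45 at 3 days (SE 0.10, adjusted p = 0.00328) and -1.08 at 7 days (SE 0.10, adjusted p = 1.05e-05). Scarb1, a lipoprotein receptor that also takes up carotenoids, was lower with rcCHIL3 at 3 days, 189 ± 0.18 against 328 ± 0.88 with MHM + GF (SD, n = 2 arrays each), a change of -0.73 (SE 0.09, adjusted p = 3.2e-05). At 7 days it had means of 133 with rcCHIL3, against 118 with MHM + GF, and 0.15 (adjusted p = 0.177) did not pass. Ttr, the carrier of thyroxine and of the retinol binding protein, varied widely between arrays of a group, 146 and 477 with rcCHIL3 against 30.3 and 171 with MHM + GF at 3 days, and its call there (1.55, SE 0.58, adjusted p = 0.0431) was lost under 11 of 21 alternatives, among them the removal of rcCHIL3 replicate 2 or MHM + GF replicate 1 of that day.

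Among 6 measured retinol dehydrogenases and reductases beside Rdh5 and Rdh10, 2 rose and 1 fell with rcCHIL3 at 3 days, and 1 rose and 1 fell at 7 days. The calls of the 2 that rose at 3 days, Rdh14 and Adh5, were both lost without rcCHIL3 replicate 1 or MHM + GF replicate 1 of that day, and that of Adh5 without any 1 of the 4 arrays. Dhrs7, a short-chain dehydrogenase, had 272 and 253 with rcCHIL3, against 151 and 132 with MHM + GF at 7 days, a rise of 0.81 (SE 0.08, adjusted p = 2.42e-05). At 3 days it had 127 and 130.2 with rcCHIL3, against 141 and 147 with MHM + GF (-0.14, adjusted p = 0.196). Dhrs4, a reductase of retinaldehyde, fell with rcCHIL3 on both days, with changes of -0.58 at 3 days (SE 0.10, adjusted p = 0.000657) and -0.78 at 7 days (SE 0.10, adjusted p = 0.000125). Rdh11, another retinaldehyde reductase, did not pass between the media (0.09 and 0.18, adjusted p = 0.562 and 0.226) but was lower at 7 than at 3 days in rcCHIL3 (-0.62, adjusted p = 0.00139) and in MHM + GF (-0.72, adjusted p = 0.000252). Its other kept probe set was called higher with rcCHIL3 at 7 days and not called between the days in rcCHIL3.

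Fabp5, a fatty acid binding protein that can carry retinoic acid to PPAR delta, was bright, with a mean of 2929 with rcCHIL3, against 3254 with MHM + GF at 3 days. Its change there, -0.15 (SE 0.06, adjusted p = 0.0412), was lost when any 1 of the 4 arrays of that day was left out. Of the 7 receptor co-regulators measured, 1 rose with rcCHIL3 at 3 days and 2 fell at 7 days, and 4 rose at 7 over 3 days in MHM + GF. The 3-day call, of Ncoa2, was lost without MHM + GF replicate 2 or either rcCHIL3 array of that day. Both 7-day calls, of Ncoa1 and Crebbp, were lost without rcCHIL3 replicate 2 of that day. That of Ncoa1 was lost also without rcCHIL3 replicate 1 or MHM + GF replicate 2, and that of Crebbp without MHM + GF replicate 1. In MHM + GF between the days the coactivator genes Ncoa2 and Ncoa1 rose by 0.69 (SE 0.11, adjusted p = 0.000197) and 0.59 (SE 0.08, adjusted p = 9.55e-05), and Nrip1, a corepressor of nuclear receptors, by 0.41 (SE 0.09, adjusted p = 0.00183). In rcCHIL3 between the days Ncoa1 rose by 0.36 (SE 0.08, adjusted p = 0.00547).

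Other partners of RXR over the filter were Thra, Nr4a1 and Nr4a2. Thra, the thyroid hormone receptor alpha gene, had 450.99 and 454.8 with rcCHIL3, against 609.8 and 598 with MHM + GF at 7 days, a change of -0.40 (SE 0.06, adjusted p = 0.000345), a call made for 2 of its 3 kept probe sets. At 3 days it was 0.20 higher with rcCHIL3 (SE 0.06, adjusted p = 0.0179), a call lost without replicate 2 of either medium at that day. With MHM + GF, Thra rose at 7 over 3 days by 0.59 (SE 0.06, adjusted p = 9.25e-06), a call made for 1 of its 3 kept probe sets. Nr4a2, an orphan receptor of dopamine neurons, had 30.9 and 33.3 with rcCHIL3, against 69.8 and 71.3 with MHM + GF at 3 days (-0.80, SE 0.09). It reached 50 only on these MHM + GF arrays, so the change is given as a description, with no p. Nr4a1, an immediate early gene, was higher with rcCHIL3 on both days, by 0.27 at 3 days (SE 0.09, adjusted p = 0.0338), lost without any 1 of the 4 arrays of that day, and by 0.42 at 7 days (SE 0.09, adjusted p = 0.00392).

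Genes known to respond to retinoic acid in other systems moved in both directions, with 6 measured of 11 on the array. At 3 days 2 rose and 2 fell with rcCHIL3, and at 7 days 3 rose and 2 fell. Of these calls, that of Rarres2 at 3 days was lost without any 1 of the 4 arrays of that day. Its signals there, 13.6 and 10.5 with rcCHIL3 against 2.87 and 5.38 with MHM + GF, were all far under 50. The calls of Nr2f1 were lost without 2 single arrays at 3 days and without 3 at 7 days. That of Nr2f2 at 7 days was lost without 3 single arrays. Meis2 was not called between the media by its brightest probe set. Of its 4 kept probe sets, however, 1 was called lower with rcCHIL3 at 3 days and 3 at 7 days. Rarres2, which encodes the chemoattractant chemerin, had 57.1 and 61.7 with rcCHIL3, against 12.3 and 25.3 with MHM + GF at 7 days, a log2 change of 1.05 (SE 0.15). It reached 50 only on these rcCHIL3 arrays, so the change is given as a description, with no p. Rarres1, a retinoic acid receptor responder, had 103 and 81.4 with rcCHIL3, against 41.5 and 57.2 with MHM + GF at 3 days. Its log2 changes were 0.70 (SE 0.13) at 3 days and 0.56 (SE 0.13) at 7 days. Of the MHM + GF arrays only replicate 2 at 3 days reached 50, so without the rcCHIL3 arrays Rarres1 would not have passed the filter. Both changes are therefore given as a description, with no p. Meis1, a homeobox gene and partner of HOX proteins, fell with rcCHIL3 on both days. Meis1 had 66.3 and 70.7 with rcCHIL3, against 154 and 157 with MHM + GF at 3 days, a change of -0.99 (SE 0.10, adjusted p = 7.01e-06), and one of -0.86 at 7 days (SE 0.10, adjusted p = 4.11e-05). The list thus had no common direction.

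**Figure D4:**
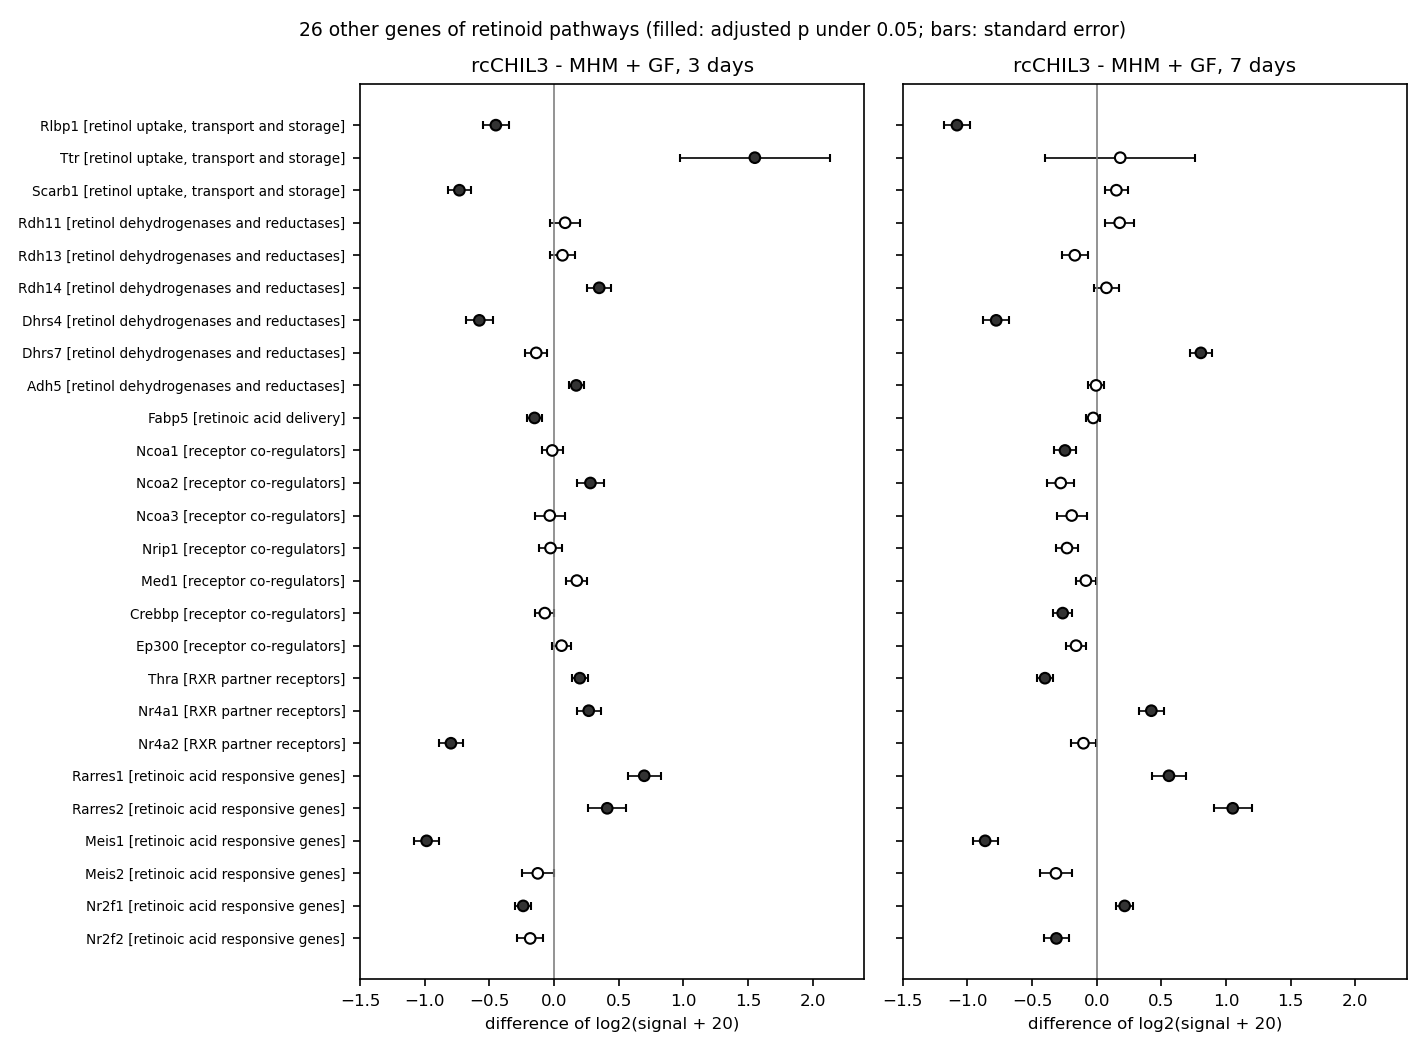
Log2 change (x axis, rcCHIL3 minus MHM + GF) of the 26 other retinoid genes at 3 days (left) and 7 days (right), with bars for the standard error and filled points for adjusted p under 0.05. Meis1 lies at -0.99 and -0.86 and Rarres1 at 0.70 and 0.56, while Dhrs7 stands at -0.14 and 0.81, so that some genes kept their side of 0 and others did not.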

How the data were processed

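Total RNA of neurospheres from independent experiments, as the methods call them, was hybridised to 8 Affymetrix mouse genome arrays, 2 for each of the 4 groups. No source says more on how the cultures were separated, so the spread between arrays may be partly technical. The authors made the deposited values, linear intensity signals, with the MAS5 algorithm (Affymetrix Expression Console 1.1 per the labels). Array averages were 267.3 to 316.6 as deposited, and each array was rescaled to 100. The 64 array controls were left out. Depth does not apply, and the number of arrays limits the precision. A model with 4 group means (R 4.3.3 with limma 3.58.1, two-sided, trended eBayes, 4 residual degrees of freedom) was fitted to log2(signal + 20) and tested on simulated data. Genes were named by the platform annotation, in which 34958 probe sets have 1 symbol, 932 several and 9211 none.

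Members and gene lists were chosen with earlier results of these data known, so the calls and adjusted p of their genes are no independent test. Named are every member, up to 3 genes of each other list by size of change (every gene in lists with 5 or fewer measured), the 3 genes closest in profile to a member whose group means span at least 1 on the log2 scale, and defining markers. The other members spanned under 1. Same-numbered arrays did not deviate together from their group means (r lay between -0.0106 and 0.1021), so the main fit has no block. Alternatives were offsets, filters, scalings, the spread model, the groups in the fit, a replicate block, the two-tailed test given in the methods and leaving out each array. Figures were drawn with Python 3.11.15 and matplotlib 3.10.9.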

Additional observations from a re-analysis of the deposited data

Results flagged for a closer look

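The rcCHIL3 effect, as the log2 change of rcCHIL3 over MHM + GF, differed between 7 and 3 days for 2 of the 5 member probe sets and 8 of the 26 other retinoid genes (interaction contrast of the limma fit, 7 minus 3 days), where 41.4% of all kept probe sets and 43.3% of all genes passed. For the members, chosen on these arrays, the values are a description: -3.50 for Rdh5 (SE 0.10) and -0.80 for Rxra (SE 0.18). The lists of other genes were also drawn up with earlier results known, so the adjusted p of their genes are descriptive.

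In the other genes the effect was lower at 7 days for Rlbp1 (-0.63, SE 0.14, adjusted p = 0.0048), Thra (-0.60, SE 0.09, adjusted p = 0.000237, called for 1 of its 3 kept probe sets) and Ncoa2 (-0.56, SE 0.15, adjusted p = 0.011). It was higher at 7 days for Dhrs7 (0.94, SE 0.12, adjusted p = 9.28e-05), Scarb1 (0.88, SE 0.12, adjusted p = 0.000187) and Nr2f1, an orphan nuclear receptor (0.46, SE 0.09, adjusted p = 0.00201). Nr4a2 (0.70, SE 0.13) and Rarres2 (0.64, SE 0.21) also had a higher effect at 7 days, but passed the filter only through 1 group of the contrast, MHM + GF at 3 days for Nr4a2 and rcCHIL3 at 7 days for Rarres2, so their values are a description, with no p. The value of Rarres2 lost its call without any of 5 single arrays, with no filter and as deposited, and that of Ncoa2 as deposited. The probe sets of the other genes named kept it in every alternative run.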

How the results depend on the processing

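Of 393 values of the members other than Rdh5 under alternatives, 355 kept call and direction, 24 lost a call and 4 gained one. The 10 sign changes were all of uncalled values. With 1 array left out, Rdh10 (1426968_a_at) ranged between -0.0020 and 0.1653 at 3 days, between -0.0112 and 0.3317 at 7 days, between -0.0441 and 0.2989 in MHM + GF between the days, and between -0.0929 and 0.2501 for the difference of effects. Rxrb ranged between -0.1613 and 0.1262 at 7 days, where it was 0.0749 as deposited, and between -0.0795 and 0.2081 in MHM + GF between the days. Rxra ranged between -0.1195 and 0.2034 in rcCHIL3 between the days. Of 58 calls of other retinoid genes, with 1184 values under alternatives, 1018 were kept and 166 lost, with no sign change.

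Counts of called member probe sets moved as follows. At 3 days (4) it was 2 with a filter of 100 and as deposited, 1 under the test given in the methods with Benjamini-Hochberg adjustment, and 2 to 4 with 1 array left out. At 7 days (1) it was 2 with no filter, 2 with the replicate block, under which Rxra was called too, 0 under that adjusted test, where Rdh5 alone had been called in the limma fit, and 1 to 2 with 1 array left out. Between the days in rcCHIL3 (2) it was 1 with no filter or a filter of 100, 0 under the adjusted test and 1 to 2 with 1 array left out, and in MHM + GF (3) it was 1 with a filter of 100 or under the adjusted test and 3 with any array left out. For the difference of effects (2) it was 1 with a filter of 100 and 2 to 3 with 1 array left out. A filter of 100 leaves only Rdh5 and Rxrb to be tested. Of all 15679 kept probe sets, the adjusted test called 2434 at 3 days and 37 at 7 days. It called 0 between the days in rcCHIL3 and 2376 in MHM + GF. Counts of 0 under it, here and for the other genes, are thus not particular to these genes.

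Counts of other genes at 3 days (15) were 9 with median centring, 8 under the test given in the methods unadjusted, 3 adjusted, and 8 to 14 with 1 array left out. At 7 days (12) they were 0 under the adjusted test and 8 to 14 with 1 array left out. Between the days in rcCHIL3 (9) they were 15 with no filter, 0 under the adjusted test and 8 to 10 with 1 array left out, and in MHM + GF (14) 3 under the adjusted test and 11 to 14. For the difference of effects (8) they were 7 to 9. The cause was not tested. As deposited, the share of calls that were higher was 44.4% at 3 days (55.1% after rescaling), 65.2% at 7 days (48.5%), 67.5% between the days in rcCHIL3 (50.2%) and 66.3% for the difference of effects (45.3%), whose median over all kept probe sets was 0.12, against -0.04 after rescaling. The replicate block changed no other call of a member.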
